A study of Homo sapiens with 18 samples.

Results

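Olaparib and PARP1 siRNA were set directly against each other in MDA-MB-231 cells labelled TRIM27 knockout. MDA-MB-231 is an established line from a human breast cancer that lacks hormone receptors and HER2 amplification, grown here in DMEM with serum. The comparison covered 14758 genes, those that reached 1 FPKM in 3 or more of the 6 libraries compared, out of 62830 rows in the gene table. These 14758 include 966 unnamed loci of the authors, and 11255 are protein-coding genes. FPKM is fragments per kilobase of gene, scaled to the mapped fragments of the library, a unit that takes out gene length and library size. The 18 libraries of the study fell into 6 groups of 3, all with 1 batch label. Olaparib knockout cells received 2 µM olaparib for 24 h, and siPARP1 knockout cells were transfected with PARP1 siRNA at a labelled 100 pM with Lipofectamine RNAiMAX and harvested at 48 h. The untreated knockout libraries carried no treatment label, and whether they received the DMSO or the non-targeting siRNA named in the protocol was not given. TRIM27 wild-type cells had the same olaparib, siPARP1 and untreated groups. All 4 treated groups and both untreated groups are of this 1 cell line, and neither the number of knockout clones nor the guide used was given in the sources used here.

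The arms differed in more than the target: drug against transfection, 24 h against 48 h. These differences cannot be told apart, and every value below compares one arm as a whole with the other. Whether the 3 replicates of an arm were grown separately is not labelled, and a p-value here reflects only how these libraries scatter, which may be technical.

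PARP1 is a nuclear enzyme that binds DNA breaks and builds poly(ADP-ribose) chains on itself and its neighbours, which draws repair proteins to the site. Olaparib occupies the NAD+ pocket of PARP1 and PARP2, leaves the proteins in the cell and holds them on DNA, whereas siRNA removes the PARP1 transcript. TRIM27 is a RING-finger E3 ubiquitin ligase that shuttles between nucleus and cytoplasm. MDA-MB-231 cells have a mesenchymal-like gene expression pattern.

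The 6 libraries compared were of even quality by the measures the files allow. Pearson's r of log2(FPKM + 1) across genes was 0.9822 to 0.9881 within the arms and 0.9474 to 0.9523 between them. Genes at 1 FPKM or more numbered 14429 to 14446 in the olaparib libraries and 14451 to 14541 in the siPARP1 libraries. The absolute depth is unknown from FPKM, and the steps between low values gave depths, relative to the first olaparib library, of 0.837 to 1.101 in the olaparib libraries and 0.836 to 0.874 in the siPARP1 libraries. siPARP1 library 2 stood furthest from its group, with 148 genes apart by a log2 of 1 or more, against 83 to 111 in the other 5 libraries. Unnamed loci held 44.16% to 45.91% of the summed FPKM in the olaparib libraries and 43.41% to 44.61% in the siPARP1 libraries. Mitochondrial transcripts made up 23.5% to 25.21% of the annotated signal, which leaves those loci out, in the olaparib libraries and 27.27% to 28.19% in the siPARP1 libraries. Markers of the line were high in all 6 libraries (VIM 1564 to 1953 FPKM, CD44 242 to 455 FPKM, AXL 73.0 to 99.4 FPKM), while CDH1 stayed at 0.09 FPKM or below and GRHL2 was listed at 0. Leukocyte, fibroblast and endothelial markers such as PTPRC, CD3E, DCN, LUM and PECAM1 were at or near 0, and CD14 was at 0.071 to 1.01 FPKM. The label calls the cells epithelial. From 6 epithelial markers checked, CDH1, EPCAM, CLDN3, ESRP1 and GRHL2 did not reach 1 FPKM in any of the 6 libraries, while CLDN7 was at 0.924 to 1.826 FPKM. Of 32 listed epithelial and keratin genes 16 were below the rule of the comparison, while some of the others were high, KRT8 among them. The 16 in the comparison summed to 1914 to 2366 FPKM with olaparib and 1080 to 1100 FPKM with siPARP1. Few genes carried these sums. A list of 7 luminal genes that includes KRT8 and KRT18 summed to 1877 to 2337 FPKM with olaparib and 1048 to 1065 FPKM with siPARP1. Luminal markers were mixed. GATA3 was at 13.3 to 31.6 FPKM and ERBB2 at 14.7 to 32.4 FPKM, while ESR1, PGR and FOXA1 stayed below 1 FPKM.

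A majority of the genes tested separated the arms, mostly by small steps. Of all 15764 genes tested by limma over the 18 libraries, 52.2% differed at an adjusted p under 0.05, with 22.4% higher and 29.7% lower under olaparib than under siPARP1. The excess of lower calls depended on scaling: median-of-ratios scaling gave 4037 higher and 4084 lower, against 3534 and 4687. Among the 14758 genes of the comparison, 3373 rose and 4532 fell with olaparib relative to siPARP1, and 6853 did not pass the test. The median absolute log2 difference of the genes that passed was 0.52, and 551 were at least 2-fold higher and 435 at least 2-fold lower. In 8952 genes the 3 olaparib and 3 siPARP1 libraries did not overlap, 3849 with olaparib above and 5103 with olaparib below. Of the 14758 genes, 283 reached 1 FPKM in olaparib libraries only and 267 in siPARP1 libraries only, so their difference follows in part from how they entered. The tested set also held 1006 genes outside the comparison, and 316 of those passed.

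PARP1 itself gave the check on the siRNA arm. It stood at 40.6, 38.7 and 40.9 FPKM in the olaparib libraries and 8.71, 9.58 and 9.46 FPKM in the siPARP1 libraries (log2 difference 2.003, SE 0.069, adjusted p = 9.32e-12). The arms did not overlap, and untreated knockout cells had 58.9, 51.5 and 55.2 FPKM, so both arms lay below untreated cells, with log2 differences of -0.45 for olaparib and -2.45 for siPARP1. When transcript values were summed in place of the gene table, the difference was 0.51 with an adjusted p of 0.395. PARP2, the other nuclear PARP that olaparib binds, had 15.5, 15.2 and 13.7 FPKM with olaparib and 16.9, 15.9 and 17.5 FPKM with siPARP1 (log2 difference -0.17, SE 0.067, adjusted p = 0.0423). That call did not hold in 9 of 16 alternatives: without olaparib library 2 (adjusted p = 0.0555) or 3 (0.181), without siPARP1 library 1 (0.0921) or 3 (0.135), after rescaling to TPM (0.104) or by median-of-ratios (0.148), without a filter (0.0767), in a fit of the 6 libraries (0.0815) and with a replicate block (0.0562).

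TRIM27 read 0.555, 0.681 and 0.65 FPKM under olaparib and 0.946, 0.982 and 1.04 FPKM under siPARP1, low in both arms of the knockout (log2 difference -0.29, SE 0.096, adjusted p = 0.0207). It missed the 1 FPKM rule in these 6 libraries and was fitted through wild-type values. Untreated knockout cells had 0.665, 0.547 and 0.658 FPKM, and wild-type cells had 1.27, 1.502 and 1.41 FPKM under olaparib, 1.78, 1.62 and 2.44 FPKM under siPARP1 and 1.18, 1.51 and 1.65 FPKM untreated. Under each treatment all knockout libraries were below all wild-type libraries, and wild-type levels were low too. The call was lost without olaparib library 1 (adjusted p = 0.071), without siPARP1 library 3 (0.0598) and with no filter on low values (0.0533). PAX6, a developmental transcription factor, was below the 1 FPKM rule, at 0.104, 0.436 and 0.179 FPKM with olaparib and 0.428, 0.385 and 0.698 FPKM with siPARP1, with overlapping values (log2 difference -0.28, SE 0.119, adjusted p = 0.119 in a fit of 41488 genes without the rule). Untreated knockout cells had 0.967, 1.18 and 0.934 FPKM of PAX6, above both arms.

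Across the PARP family and the enzymes of NAD+ and ADP-ribose turnover, 8 of 23 genes rose and 11 fell with olaparib relative to siPARP1 (median log2 -0.14, against -0.06 over all genes tested). PARP14, an interferon-linked mono-ADP-ribosyltransferase, had 4.37, 4.27 and 4.52 FPKM with olaparib and 7.47, 8.86 and 8.46 FPKM with siPARP1 (log2 difference -0.78, SE 0.058, adjusted p = 3.97e-08). PARP3, which acts at DNA breaks, fell by 0.62 on the log2 scale, and NADK, the cytosolic NAD+ kinase, fell by 0.76. NMNAT1, the nuclear enzyme that makes NAD+, rose by 0.68, and PARP11 rose by 0.49. Apart from PARP1, no gene of this group named here moved by a log2 of 1.

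**Figure D1:**
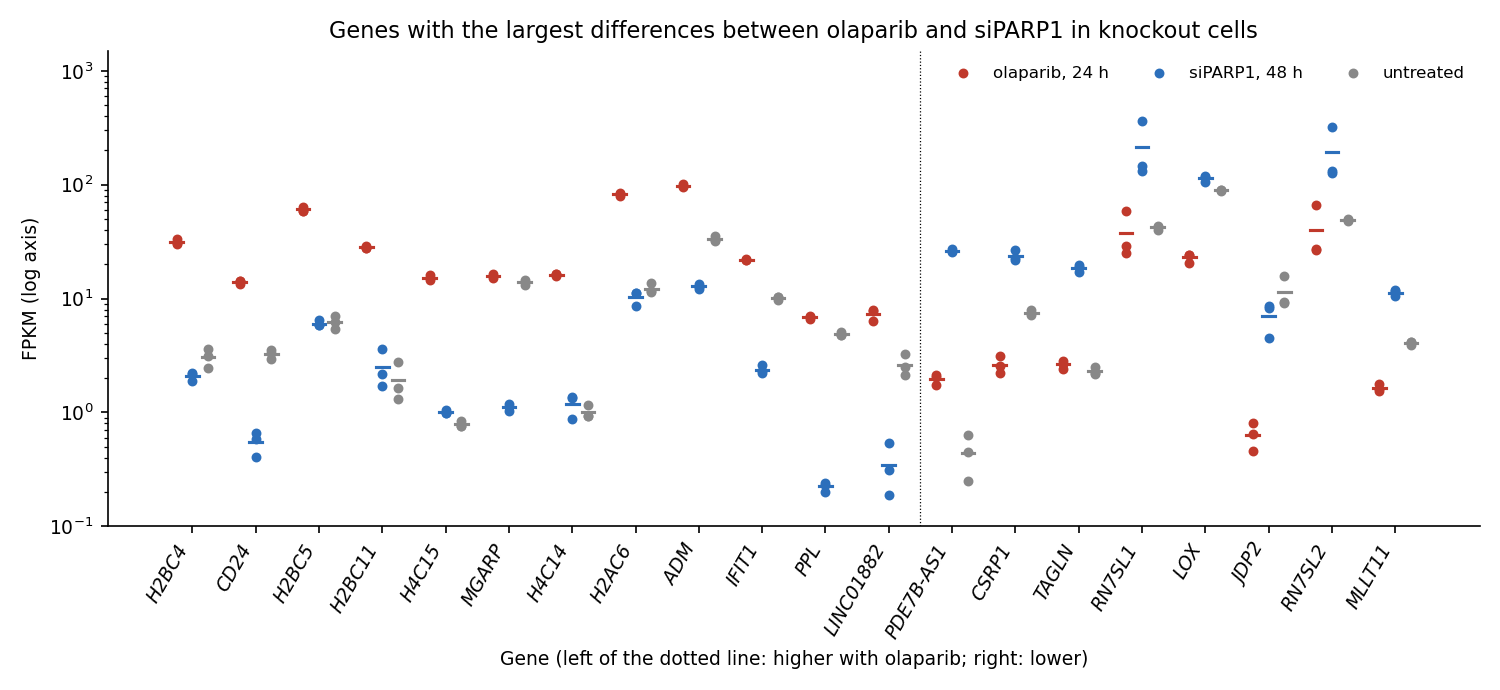
FPKM on a log axis of the genes with the largest differences between the arms in knockout cells; points are libraries (olaparib red, siPARP1 blue, untreated gray, 3 each) and bars are means. The olaparib points of H2BC4, H2BC5 and H2BC11 lie above both other groups, while MGARP and PPL are near untreated with olaparib and low with siPARP1, and PDE7B-AS1, CSRP1 and TAGLN are high with siPARP1; the 4 copies of 5.8S rRNA are left out.

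The genes with the largest differences were of a few kinds. Of the 12 that were highest with olaparib, 6 were histone genes, and their olaparib values lay far above both siPARP1 and untreated cells. CD24, a surface glycoprotein, had 13.5, 14.1 and 14.3 FPKM with olaparib, 0.41, 0.581 and 0.656 FPKM with siPARP1 and 3.34, 3.51 and 2.96 FPKM in untreated knockout cells (log2 difference 3.28, SE 0.13, adjusted p = 3.4e-11), so it lay above untreated cells in one arm and below in the other. MGARP, a mitochondrial membrane protein, had 15.2, 16.5 and 15.8 FPKM with olaparib and 1.02, 1.196 and 1.11 FPKM with siPARP1 (log2 difference 2.996, SE 0.072, adjusted p = 3.44e-13). Its untreated level was 13.1, 14.1 and 14.6 FPKM, close to the olaparib arm, and PPL, the desmosomal linker periplakin, had the same order, with 6.93, 6.66 and 6.99 FPKM under olaparib, 0.241, 0.229 and 0.202 FPKM under siPARP1 and 4.81, 4.78 and 5.07 FPKM untreated. ADM, the secreted vasodilator peptide adrenomedullin, reached 101, 97.3 and 94.6 FPKM with olaparib and 12.7, 13.5 and 12.2 FPKM with siPARP1, on either side of 32.2, 35.6 and 32.8 FPKM in untreated cells (log2 difference 2.83, SE 0.23, adjusted p = 1.35e-07). LINC01882, a long non-coding RNA, had 7.77, 7.93 and 6.39 FPKM with olaparib and 0.311, 0.188 and 0.543 FPKM with siPARP1.

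Of the genes lowest with olaparib, several stood far above untreated cells in the siPARP1 arm. PDE7B-AS1, a transcript antisense to the phosphodiesterase gene PDE7B, had 2.06, 2.13 and 1.73 FPKM with olaparib and 27.1, 25.5 and 26.3 FPKM with siPARP1, against 0.248, 0.445 and 0.639 FPKM untreated (log2 difference -3.2, SE 0.11, adjusted p = 6.77e-12). The counting is not stated to use strand, so its reads and those of PDE7B cannot be told apart. TAGLN, the actin-binding protein transgelin, had 2.42, 2.65 and 2.83 FPKM with olaparib and 19.9, 18.9 and 17.1 FPKM with siPARP1 (log2 difference -2.43, SE 0.11, adjusted p = 1.5e-10), and untreated cells had 2.17, 2.21 and 2.49 FPKM, overlapping the olaparib values. CSRP1, a LIM-domain protein of actin bundles, had 2.23, 3.12 and 2.56 FPKM with olaparib and 26.9, 21.8 and 22.6 FPKM with siPARP1, with untreated cells between them at 7.17, 7.88 and 7.497 FPKM. LOX, which crosslinks collagen, was the reverse case, with 24.2, 24.1 and 20.5 FPKM under olaparib, 105, 118 and 119 FPKM under siPARP1 and 89.3, 87.6 and 90.4 FPKM untreated, so that the olaparib arm stood apart. JDP2, a bZIP repressor of AP-1, fell by 2.26 on the log2 scale and MLLT11 fell by 2.22.

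Non-polyadenylated RNAs made up the rest of that list, and they rested partly on single libraries. RN7SL1, the RNA of the signal recognition particle, had 58.3, 28.95 and 25.3 FPKM with olaparib and 146, 359 and 132 FPKM with siPARP1 (log2 difference -2.41). Olaparib library 1 was the high one of its arm and siPARP1 library 2 the high one of the other; without siPARP1 library 2 the difference was -1.96, and its near-identical copy RN7SL2 had -2.23 with all libraries and -1.80 without that one. The 4 annotated copies of 5.8S ribosomal RNA, whose reads cannot be assigned to one copy, differed by a log2 of -2.75 to -2.93. Without siPARP1 library 2 the same 4 values were -1.72 to -1.98, still past the test. The libraries were made with oligo(dT) beads, which select tailed RNA, and the part of carried-over untailed RNA in these values was not tested.

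Histone genes formed the group with the largest shift. The replication-dependent histone genes supply the core and linker histones of newly copied chromatin, and most of their mRNAs end in a stem-loop and carry no poly(A) tail. Of 60 listed, 24 were in the comparison and 36 were below its rule. Among the 24, 22 rose with olaparib relative to siPARP1, none fell, and the median log2 difference was 1.88. Because 9 of the 24 reached 1 FPKM in all olaparib libraries but not in all siPARP1 libraries, their difference follows in part from how they entered; of the 14 at 1 FPKM or more in all 6 libraries, 13 rose. H2BC4, an H2B gene, had 30.8, 33.3 and 30.3 FPKM with olaparib and 1.88, 2.17 and 2.199 FPKM with siPARP1 (log2 difference 3.397, SE 0.11, adjusted p = 3.62e-12). H2BC5 had 63.7, 59.1 and 59.2 FPKM with olaparib and 6.42, 5.85 and 5.802 FPKM with siPARP1, and H2BC11 had 27.9, 27.96 and 28.7 FPKM with olaparib and 2.19, 3.62 and 1.72 FPKM with siPARP1. In each the lowest olaparib library was several times the highest siPARP1 library.

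The other histone classes moved the same way. H2AC6, an H2A gene, had 83.04, 85.2 and 79.5 FPKM under olaparib and 11.1, 11.2 and 8.64 FPKM under siPARP1. H1-2, a linker histone, had 112, 103 and 105 FPKM under olaparib and 19.2, 18.7 and 20.3 FPKM under siPARP1 (log2 difference 2.397, SE 0.068, adjusted p = 1.42e-12). H4C14 and H4C15, near-identical H4 genes whose reads may be split between them, rose by 2.98 and 3.02 on the log2 scale. Against the same untreated libraries, the 24 histone genes of the comparison were all higher under olaparib (median log2 1.96) and 5 higher and 2 lower under siPARP1 (median 0.12). The entry limit applies here too, since 9 of the 24 reached 1 FPKM in all olaparib libraries but not in all siPARP1 libraries. The olaparib count and median thus follow in part from how those genes entered. Over all genes tested, 25.2% were higher and 22% lower under olaparib than untreated, and 31.9% higher and 22.8% lower under siPARP1. The part of tail selection in the histone values was not tested.

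The start regions of the H2B genes are shown because their promoter elements are well described. The windows run from 250 bases before to 50 bases after the RefSeq gene start in GRCh38.p14, 5′ to 3′ on the gene's strand: H2BC4 at chr6:26123877-26124176 (minus strand), H2BC5 at chr6:26157871-26158170 (plus strand) and H2BC11 at chr6:27132746-27133045 (minus strand). Capitals mark the octamer ATTTGCAT, the TATA box TATAAA and the CCAAT box CCAAT on either strand, some of them overlapping.
H2BC4: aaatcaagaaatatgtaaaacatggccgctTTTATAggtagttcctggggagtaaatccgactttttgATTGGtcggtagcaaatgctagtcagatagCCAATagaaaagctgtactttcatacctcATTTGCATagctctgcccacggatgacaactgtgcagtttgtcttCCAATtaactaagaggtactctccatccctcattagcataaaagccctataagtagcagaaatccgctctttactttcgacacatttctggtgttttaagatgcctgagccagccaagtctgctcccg
H2BC5: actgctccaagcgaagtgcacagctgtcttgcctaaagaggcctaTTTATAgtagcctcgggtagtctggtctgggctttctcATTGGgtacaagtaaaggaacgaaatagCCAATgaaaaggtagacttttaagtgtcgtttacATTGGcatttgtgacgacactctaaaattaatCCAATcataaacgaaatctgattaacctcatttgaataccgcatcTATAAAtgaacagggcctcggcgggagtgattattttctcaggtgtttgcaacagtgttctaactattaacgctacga
H2BC11: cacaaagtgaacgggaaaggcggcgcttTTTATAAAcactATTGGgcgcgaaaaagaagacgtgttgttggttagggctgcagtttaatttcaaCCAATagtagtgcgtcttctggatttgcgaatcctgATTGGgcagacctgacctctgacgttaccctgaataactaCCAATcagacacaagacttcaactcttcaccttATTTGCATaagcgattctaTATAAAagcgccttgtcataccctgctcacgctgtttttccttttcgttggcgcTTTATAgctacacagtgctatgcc
Of the 23 histone genes with a RefSeq window, 43.5% held the octamer, 69.6% a TATA box and 78.3% a CCAAT box, against 1.8%, 12% and 35.7% of all 27305 windows. Here and below, a match is a description of the letters only. The lists were drawn up by known function and the shares take in called and uncalled members alike, so no regulator was tested.

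**Figure D2:**
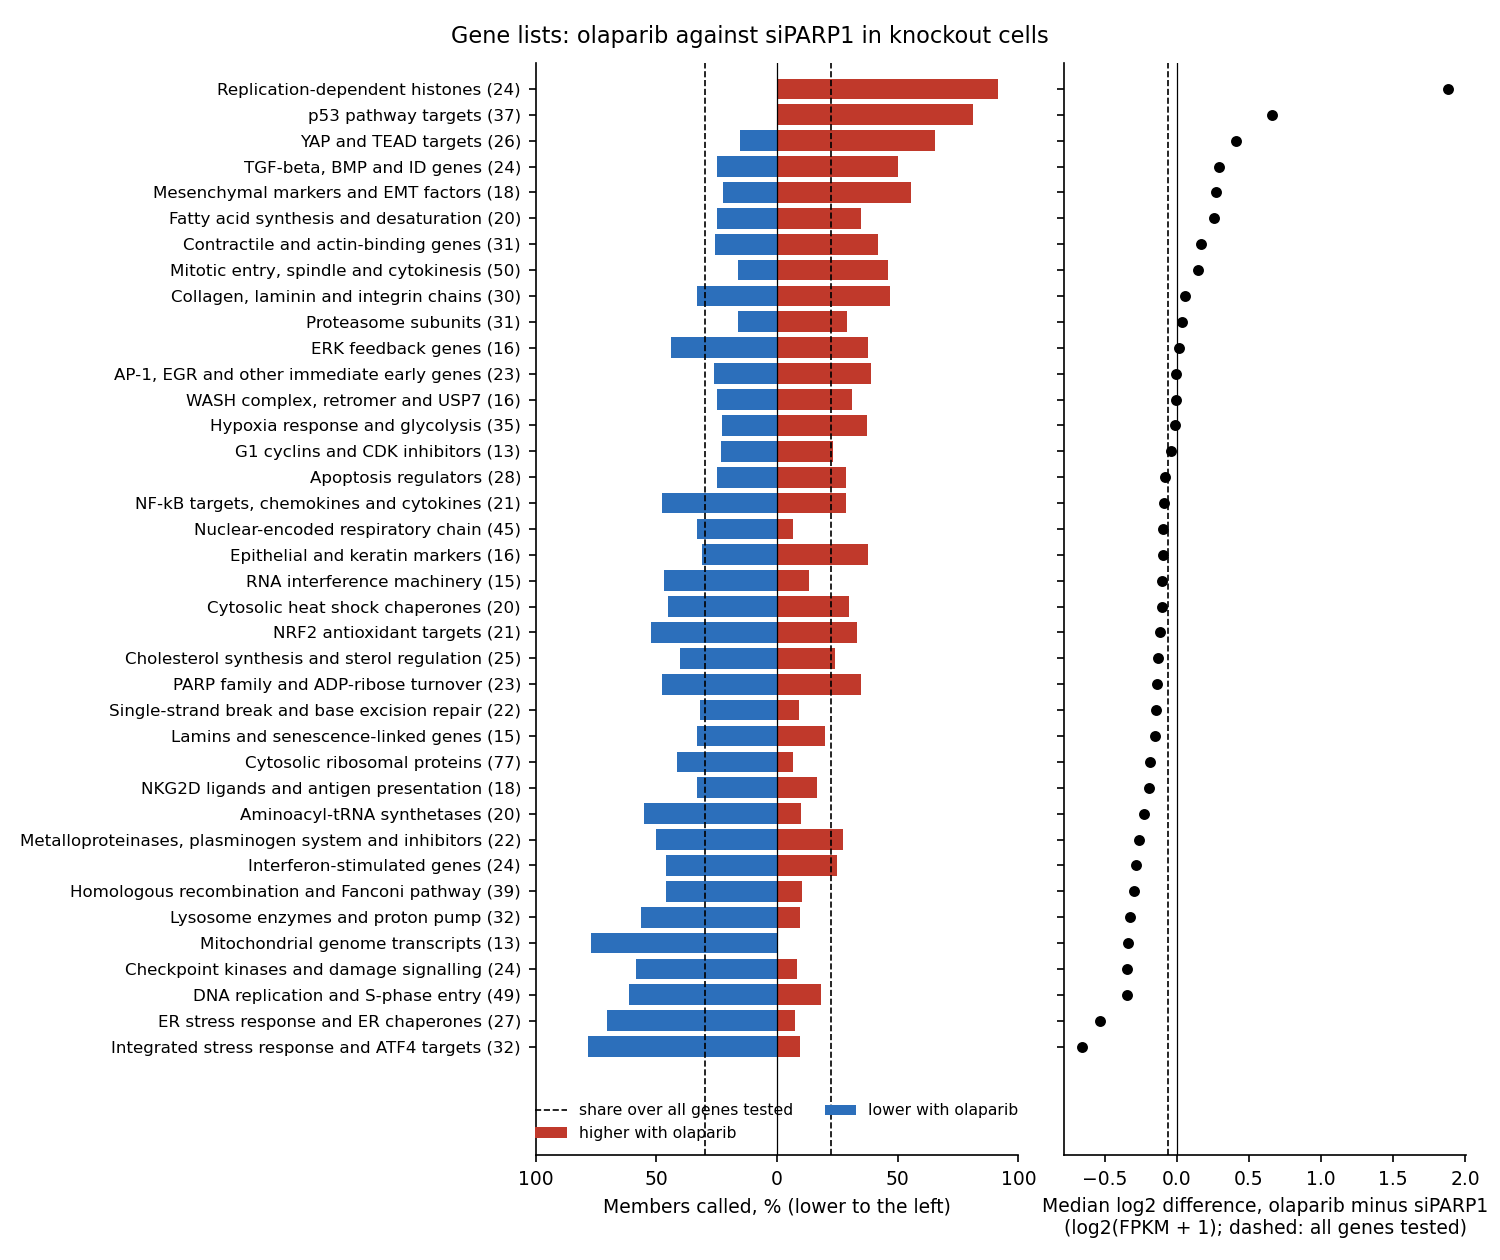
Left, the percentage of each list's members that were higher (red, to the right) or lower (blue, to the left) with olaparib than with siPARP1 in knockout cells, with dashed lines at the shares over all genes tested (22.4% higher, 29.7% lower); right, the median log2 difference of each list, with a dashed line at the median of all genes tested; lists with fewer than 10 members in the comparison are not drawn. Of the lists drawn, histones and p53 targets are at the top, with medians of 1.88 and 0.66, and integrated stress response genes at the bottom, with -0.66.

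Targets of p53 were the second group to lie on one side. These genes carry p53 binding elements, and many also respond to other stress factors. Of 37 listed genes, 30 rose with olaparib relative to siPARP1, none fell and 7 did not pass (median log2 0.66). MDM2, the ubiquitin ligase that degrades p53, had 231, 227 and 230.2 FPKM with olaparib and 50.4, 51.4 and 52.2 FPKM with siPARP1 (log2 difference 2.14, SE 0.036, adjusted p = 4.74e-14). BTG2, an antiproliferative cofactor, had 28.8, 30.1 and 30.2 FPKM under olaparib and 9.68, 9.02 and 8.83 FPKM under siPARP1. RRM2B, the p53-inducible subunit of ribonucleotide reductase, had 81.01, 79.4 and 79.8 FPKM under olaparib and 34.1, 35.1 and 37.7 FPKM under siPARP1. All 3 genes separated the arms without overlap.

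Several other p53 targets rose by a log2 near 1, among them ZMAT3, an RNA-binding protein (1.24), TP53INP1 (1.09) and TIGAR, which lowers glycolytic flux (1.01). CDKN1A, the CDK inhibitor p21 and the best-known p53 target, did not pass, with 43.4, 159.98 and 42.5 FPKM in the olaparib libraries and 94.8, 94.3 and 97.7 FPKM in the siPARP1 libraries (log2 difference -0.51, SE 0.56, adjusted p = 0.472). Olaparib library 2 was high and the other two olaparib libraries low, so the arms overlapped. Against untreated cells, 29 targets were higher and 2 lower under olaparib, and 11 higher and 13 lower under siPARP1. Both comparisons with untreated cells use the same 3 untreated libraries, here and wherever they are given.

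Genes of DNA replication and S-phase entry were mostly lower with olaparib. The list holds the MCM helicase, the GINS complex, licensing factors and E2F targets; 30 of 49 fell and 9 rose relative to siPARP1 (median log2 -0.35). MCM6, a subunit of the replicative helicase, had 9.39, 9.22 and 9.004 FPKM with olaparib and 24.5, 25.4 and 25.8 FPKM with siPARP1 (log2 difference -1.36, SE 0.041, adjusted p = 2.96e-12), with 35.6, 36.4 and 35.05 FPKM untreated. CCNE2, the cyclin of S-phase entry, had 0.693, 1.18 and 1.17 FPKM with olaparib and 5.58, 4.61 and 5.58 FPKM with siPARP1. In both genes every olaparib library was below every siPARP1 library. CDT1, which loads the helicase, and FAM111B, a protease gene of S phase, fell by 1.45 and 1.71 on the log2 scale. TYMS, thymidylate synthase, went against the list, at 45.9, 45.9 and 43.6 FPKM with olaparib and 22.9, 21.3 and 22.3 FPKM with siPARP1, and GINS4 rose by 1.08.

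Both arms were below untreated cells in most of these genes, 40 of 49 under olaparib (median log2 -0.83) and 37 under siPARP1 (median -0.53). Of the promoters of the list with a RefSeq window, 39.0% held the E2F-type sequence TTTNGCGC on either strand, against 1.83% of all windows. Among G1 regulators, 3 of 13 rose and 3 fell. CCND1, cyclin D1, had 249, 245 and 246 FPKM with olaparib and 109, 110.03 and 115 FPKM with siPARP1 (log2 difference 1.14, SE 0.036, adjusted p = 3.9e-12), and untreated cells were at 124, 121 and 119 FPKM, near the siPARP1 arm. CDKN1B, the CDK inhibitor p27, fell, with 10.9, 11.3 and 11.7 FPKM under olaparib and 26.2, 26.6 and 26.6 FPKM under siPARP1.

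Mitotic genes lay mostly below untreated cells in both arms, with the lower median in the siPARP1 arm. Of 50 genes of mitotic entry, spindle and cytokinesis, 23 rose and 8 fell with olaparib relative to siPARP1 (median log2 0.15). Against untreated cells, 45 were lower under olaparib (median -0.71) and 49 under siPARP1 (median -0.94), and none was higher in either. DLGAP5, a spindle assembly protein, had 48.1, 48.5 and 48.8 FPKM with olaparib and 21.1, 20.04 and 21.4 FPKM with siPARP1 (log2 difference 1.18, SE 0.037, adjusted p = 3.46e-12), against 57.3, 54.97 and 57.6 FPKM untreated. PTTG1, the securin that guards sister chromatids, had 100.1, 113 and 96.8 FPKM with olaparib and 51.8, 51.9 and 52.4 FPKM with siPARP1. CENPA, the centromeric histone, and KIF20A, a kinesin of cytokinesis, rose by 0.92 and 0.83 on the log2 scale. ESPL1, the separase that securin inhibits, went the other way, with 4.02, 4.38 and 3.15 FPKM under olaparib and 9.31, 8.14 and 7.53 FPKM under siPARP1. The cyclins split too, with CCNB1 of mitotic entry higher (0.63) and CCNA2 of S phase lower (-0.55). The sequence TTTGAA, the core of the cell cycle homology region, was in 69.8% of the list's windows and 15.4% of all windows.

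Among repair and checkpoint genes, lower calls with olaparib outnumbered higher ones. They did so over all genes tested too (29.7% lower and 22.4% higher), where the excess depended on scaling. In homologous recombination and the Fanconi pathway, 18 of 39 (46.2%) fell and 4 rose (median log2 -0.30), and the 18 became 10 to 20 under the alternatives run. RAD51C, a homologous recombination factor, was the exception in size, with 32.4, 26.8 and 31.5 FPKM under olaparib and 9.61, 10.4 and 9.204 FPKM under siPARP1 (log2 difference 1.54, SE 0.104, adjusted p = 1.5e-08). RAD51D, which works in a complex with RAD51C, fell, with 2.29, 3.13 and 2.27 FPKM under olaparib and 6.24, 6.45 and 5.95 FPKM under siPARP1, and RBBP8, the end-resection factor CtIP, fell by 0.83 on the log2 scale. Of 24 checkpoint genes 14 (58.3%) fell and 2 rose: CDC25A, the phosphatase that activates CDK2, had 3.85, 4.44 and 4.39 FPKM with olaparib and 10.98, 10.9 and 10.9 FPKM with siPARP1, while WEE1, CHEK1 and CLSPN fell by 0.89, 0.58 and 0.87. CDC25A was high in the siPARP1 arm, untreated cells being at 3.93, 4.84 and 5.05 FPKM. In base excision and single-strand break repair, the pathway that PARP1 serves, 7 of 22 (31.8%) fell, near the share over all genes, 2 rose and 13 did not pass. FEN1, the flap endonuclease, had 17.3, 18.3 and 16.2 FPKM with olaparib and 31.5, 31.4 and 32.2 FPKM with siPARP1, and NEIL1, a DNA glycosylase, had 3.82, 3.099 and 1.76 FPKM with olaparib and 7.25, 7.19 and 7.48 FPKM with siPARP1.

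**Figure D3:**
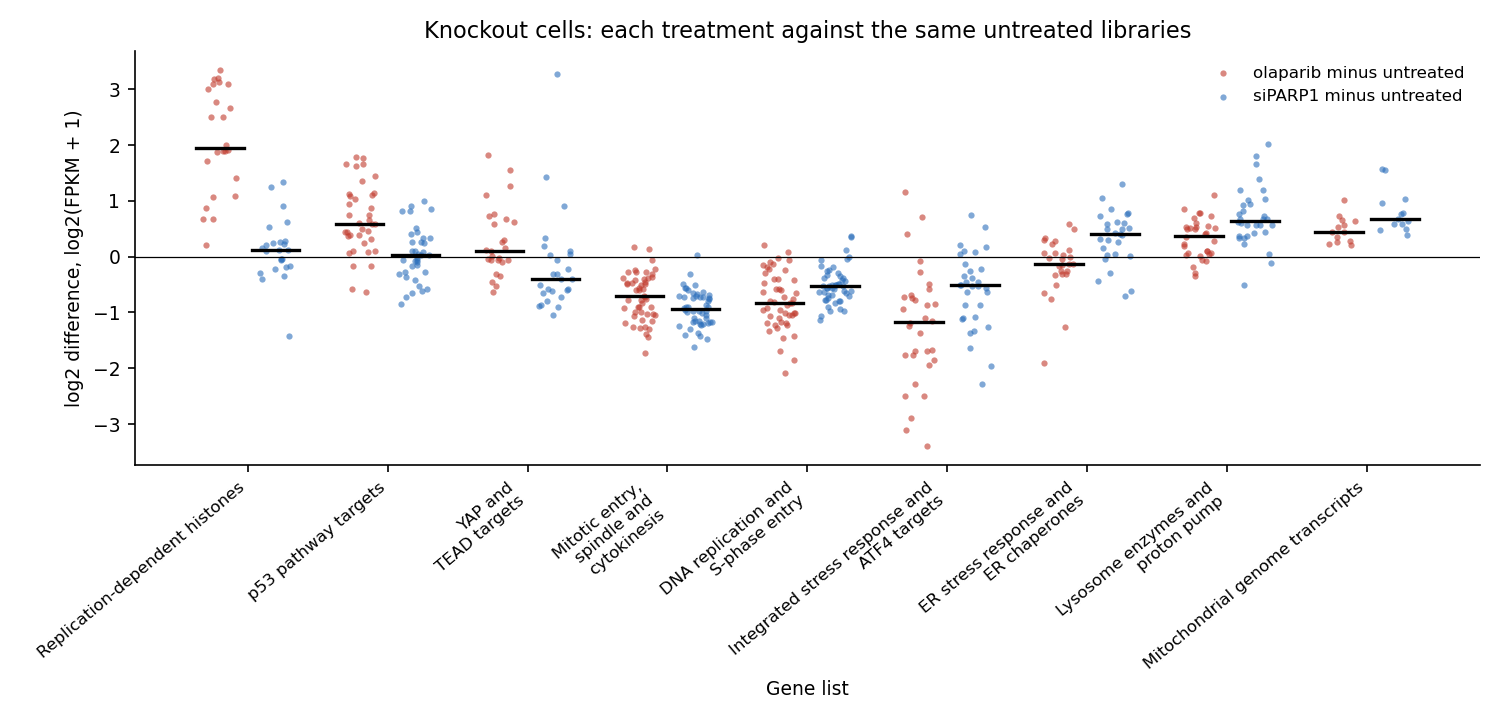
Log2 difference from untreated knockout cells for the members of 9 gene lists under olaparib (red) and under siPARP1 (blue); points are genes and bars are medians, and both treatments are set against the same 3 untreated libraries. Histone medians are 1.96 under olaparib and 0.12 under siPARP1, ER stress medians are -0.13 under olaparib and 0.41 under siPARP1, and mitotic genes are below 0 under both. The histone list holds 24 genes, and 9 of them reached 1 FPKM in all olaparib libraries but not in all siPARP1 libraries.

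Genes of the integrated stress response were mostly lower with olaparib. In this pathway eIF2 phosphorylation raises translation of the transcription factor ATF4, which induces genes of amino acid supply and tRNA charging. Of 32 genes, 25 fell and 3 rose with olaparib relative to siPARP1 (median log2 -0.66). CHAC1, which degrades glutathione, had 1.06, 0.828 and 0.868 FPKM under olaparib and 5.46, 5.55 and 5.15 FPKM under siPARP1 (log2 difference -1.74, SE 0.17, adjusted p = 9.69e-07), against 14.1, 16.3 and 16.1 FPKM untreated. XPOT, the tRNA exporter, had 15.9, 16.2 and 16.2 FPKM with olaparib and 48.1, 48.3 and 51.5 FPKM with siPARP1 (log2 difference -1.56, SE 0.042, adjusted p = 9.26e-13). In XPOT the siPARP1 arm was close to the 54.4, 52.9 and 55.5 FPKM of untreated cells, whereas in CHAC1 both arms were below. ATF4 itself had 14.01, 16.9 and 14.8 FPKM with olaparib and 35.9, 25.5 and 42.4 FPKM with siPARP1, and TRIB3, a pseudokinase that restrains ATF4, fell by 1.23 on the log2 scale. ATF3, a stress-induced bZIP factor, was among the 3 that rose, with 14.4, 13.4 and 19.5 FPKM under olaparib and 6.42, 2.85 and 5.92 FPKM under siPARP1. Against untreated cells 28 of the 32 were lower under olaparib (median -1.17) and 23 under siPARP1 (median -0.51). Of 20 cytosolic aminoacyl-tRNA synthetases, 11 fell and 2 rose with olaparib relative to siPARP1 (median -0.23), and the sequence TGATGNAA, the CARE element that ATF4 binds, was in 37.5% of their windows against 3.67% of all windows.

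ER stress genes separated the arms around the untreated level. The unfolded protein response of the endoplasmic reticulum acts through XBP1, ATF6 and PERK and raises chaperones and degradation factors. Of 27 genes, 19 fell and 2 rose with olaparib relative to siPARP1 (median log2 -0.53). HSPA5, the ER chaperone BiP, had 91.5, 90.6 and 87.5 FPKM with olaparib and 171, 166 and 173 FPKM with siPARP1 (log2 difference -0.91, SE 0.034, adjusted p = 2.75e-11), against 153, 149.9 and 154 FPKM untreated. With transcript values summed in place of the gene table, the HSPA5 difference was -3.43 with an adjusted p of 0.156. XBP1 had 12.3, 8.71 and 10.7 FPKM under olaparib and 42.7, 44.05 and 40.6 FPKM under siPARP1 (log2 difference -1.92, SE 0.25, adjusted p = 1.8e-05), and untreated cells had 35.9, 50.2 and 41.1 FPKM, so for XBP1 the olaparib arm stood apart. DNAJB9, a BiP co-chaperone, had 4.53, 5.73 and 4.61 FPKM with olaparib and 16.7, 17.8 and 17.1 FPKM with siPARP1, and here untreated cells at 5.7, 7.08 and 6.43 FPKM were near olaparib. HERPUD1, a part of the ER degradation machinery, fell by 1.57, and SEC61B, a translocon subunit, rose by 1.29. Against untreated cells 4 were higher and 10 lower under olaparib (median -0.13), and 16 higher and 4 lower under siPARP1 (median 0.41).

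The HSPA5 and XBP1 start regions are shown because both hold an ER stress element, the bipartite sequence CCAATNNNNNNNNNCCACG bound by NF-Y and ATF6, in capitals. HSPA5 is at chr9:125241294-125241593 and XBP1 at chr22:28800520-28800819 in GRCh38.p14 (RefSeq), both on the minus strand and read 5′ to 3′ on the gene's strand.
HSPA5: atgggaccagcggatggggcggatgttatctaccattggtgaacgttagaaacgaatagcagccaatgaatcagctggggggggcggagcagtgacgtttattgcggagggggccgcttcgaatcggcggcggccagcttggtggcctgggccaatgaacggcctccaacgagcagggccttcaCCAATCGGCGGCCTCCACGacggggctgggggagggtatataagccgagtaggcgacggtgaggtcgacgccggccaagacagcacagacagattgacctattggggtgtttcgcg
XBP1: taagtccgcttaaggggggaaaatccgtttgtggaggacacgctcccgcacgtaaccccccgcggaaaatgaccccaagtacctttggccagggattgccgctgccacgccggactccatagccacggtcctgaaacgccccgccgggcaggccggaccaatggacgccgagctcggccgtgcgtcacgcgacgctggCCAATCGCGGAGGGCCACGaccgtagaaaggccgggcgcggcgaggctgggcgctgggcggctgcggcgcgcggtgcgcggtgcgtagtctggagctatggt
The element lay 66 to 48 bases before the start in HSPA5 and 52 to 34 bases before it in XBP1. It was in 24.0% of the list's 25 windows and in 0.0806% of all windows.

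Lysosomal genes were mostly lower with olaparib than with siPARP1 but mostly above untreated cells in both arms. Of 32 lysosomal enzyme and proton pump genes, 18 fell and 3 rose (median log2 -0.33). Against untreated cells 18 were higher under olaparib (median 0.37) and 28 under siPARP1 (median 0.65). MCOLN1, a cation channel of the lysosome, had 9.51, 9.56 and 8.81 FPKM with olaparib, 21.2, 23.6 and 20.7 FPKM with siPARP1 and 5.62, 6.98 and 6.14 FPKM untreated (log2 difference -1.15, SE 0.088, adjusted p = 5.86e-08). HEXA, a hexosaminidase subunit, had 25.7, 24.3 and 23.98 FPKM with olaparib and 53.7, 60.2 and 62.9 FPKM with siPARP1. ATP6V1B2, a proton pump subunit, and CLCN7, a chloride exchanger, fell by 1.14 and 1.32 on the log2 scale. The siPARP1 arm had received a lipid transfection reagent that the olaparib arm had not, and the reagent and the siRNA cannot be told apart. Among 15 components of the RNA interference machinery, 7 (46.7%) were lower with olaparib than with siPARP1 and 2 (13.3%) higher. Over all genes tested these shares were 29.7% and 22.4%. Against untreated cells 4 were higher and 1 lower under olaparib (median log2 0.08), and 8 higher and 0 lower under siPARP1 (median 0.19). AGO2, the slicing Argonaute, had 8.26, 7.38 and 8.36 FPKM under olaparib and 13.9, 13.5 and 13.3 FPKM under siPARP1. TARBP2, a Dicer partner, fell by 0.901 on the log2 scale with olaparib relative to siPARP1.

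Cytosolic chaperones and antioxidant genes were mixed. Of 20 heat shock genes 6 rose and 9 fell (median log2 -0.11), with HSPA1A, the inducible HSP70, at 2.19, 2.21 and 2.23 FPKM under olaparib, 4.84, 5.18 and 4.69 FPKM under siPARP1 and 0.859, 0.952 and 0.926 FPKM untreated. Both arms were thus above untreated cells for HSPA1A, the siPARP1 arm more so; its reads may be split with the near-identical copy HSPA1B. Of 21 NRF2 targets 7 rose and 11 fell (median -0.12): HMOX1, heme oxygenase, had 16.3, 18.2 and 17 FPKM with olaparib and 40.9, 37.9 and 38.9 FPKM with siPARP1, and TKT, transketolase of the pentose phosphate path, had 419, 353 and 419 FPKM with olaparib and 139, 125 and 134 FPKM with siPARP1. In both genes the arms did not overlap. All 13 protein-coding mitochondrial transcripts were above untreated cells in both arms (median 0.43 under olaparib and 0.68 under siPARP1), and 10 of the 13 fell with olaparib relative to siPARP1 (median -0.34). Of 45 nuclear-encoded respiratory chain genes 15 fell and 3 rose (median -0.0992), of 77 cytosolic ribosomal protein genes 32 fell and 5 rose (median -0.19), and of 31 proteasome subunits 9 rose and 5 fell (median 0.04).

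Sterol and fatty acid genes were mostly lower than untreated in both arms. Against untreated cells 21 of 25 cholesterol genes were lower under olaparib and 20 under siPARP1, and directly compared 6 rose and 10 fell (median log2 -0.13). Of 20 fatty acid synthesis genes 7 rose and 5 fell (median 0.26). FADS1, a fatty acid desaturase, had 21.7, 22.2 and 21.6 FPKM with olaparib, 9.51, 10.01 and 10.5 FPKM with siPARP1 and 45.4, 41.4 and 45.4 FPKM untreated (log2 difference 1.06, SE 0.054, adjusted p = 6.97e-10), and ACSS2, which makes acetyl-CoA from acetate, had 17.3, 16.1 and 16.5 FPKM with olaparib, 10.3, 10.1 and 9.47 FPKM with siPARP1 and 44.9, 44.2 and 42.7 FPKM untreated. In both genes the arms were ordered untreated, olaparib, siPARP1 from high to low. Among 35 hypoxia and glycolysis genes, 13 rose and 8 fell (median -0.01). LDHA, lactate dehydrogenase, had 411, 432 and 446 FPKM with olaparib and 165, 174 and 184 FPKM with siPARP1, and BNIP3, a mitophagy receptor, had 62.9, 65.7 and 61.97 FPKM with olaparib and 27.7, 28.5 and 27.3 FPKM with siPARP1. SLC2A3, the glucose transporter GLUT3, was opposite, at 2.92, 3.301 and 3.04 FPKM with olaparib and 17.6, 17.1 and 18.7 FPKM with siPARP1 (log2 difference -2.202, SE 0.0697, adjusted p = 4.12e-12). EPAS1, which encodes HIF-2 alpha, rose by 1.44.

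Interferon-stimulated genes did not move as a block. Of 46 listed, 24 were in the comparison; 6 rose and 11 fell with olaparib relative to siPARP1 (median log2 -0.28). IFIT1, which binds foreign capped RNA, had 22.2, 21.8 and 21.8 FPKM with olaparib, 2.29, 2.21 and 2.59 FPKM with siPARP1 and 10.4, 10.3 and 9.75 FPKM untreated (log2 difference 2.77, SE 0.051, adjusted p = 5.49e-14), above untreated cells in one arm and below in the other. IFIT3, its partner, had 15.4, 15.6 and 14.2 FPKM with olaparib and 3.83, 4.03 and 3.85 FPKM with siPARP1, with untreated cells at 13.9, 14.3 and 14.1 FPKM near the olaparib arm. IRF1, a transcription factor of the interferon response, had 8.72, 11.4 and 12.7 FPKM with olaparib and 2.62, 2.56 and 3.12 FPKM with siPARP1. Other members were lower with olaparib: ISG15, a ubiquitin-like modifier, had 4.38, 4.92 and 4.49 FPKM under olaparib and 10.3, 10.5 and 10.7 FPKM under siPARP1, USP18, which removes that modifier, fell by 0.98 and STAT2, which carries the interferon signal, fell by 0.78.

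The IFIT1 and IFIT3 start regions are shown with the interferon element GAAANNGAAA in capitals, found here on the opposite strand. IFIT1 is at chr10:89392373-89392672 and IFIT3 at chr10:89327747-89328046 in GRCh38.p14 (RefSeq), both on the plus strand.
IFIT1: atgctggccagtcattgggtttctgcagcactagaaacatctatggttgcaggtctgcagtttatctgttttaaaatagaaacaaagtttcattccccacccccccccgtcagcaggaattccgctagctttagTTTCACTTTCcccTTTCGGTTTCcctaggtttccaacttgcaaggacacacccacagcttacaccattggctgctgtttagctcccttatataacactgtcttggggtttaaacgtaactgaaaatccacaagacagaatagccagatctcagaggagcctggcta
IFIT3: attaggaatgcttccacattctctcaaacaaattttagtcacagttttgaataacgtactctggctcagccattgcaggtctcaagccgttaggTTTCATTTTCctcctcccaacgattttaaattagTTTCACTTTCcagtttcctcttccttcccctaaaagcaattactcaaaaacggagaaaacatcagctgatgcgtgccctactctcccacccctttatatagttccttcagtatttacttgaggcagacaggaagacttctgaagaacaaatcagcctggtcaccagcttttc
Each window held the element in 2 places. It was in 70.0% of the list's 20 windows and in 3.65% of all windows.

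Inflammatory and immediate early genes also split by gene. Of 21 NF-kB targets and cytokines 6 rose and 10 fell (median log2 -0.09). CXCL8, the neutrophil chemokine interleukin-8, had 5.12, 5.6 and 5.19 FPKM with olaparib, 14.7, 14.3 and 15.9 FPKM with siPARP1 and 1.17, 1.25 and 1.64 FPKM untreated (log2 difference -1.34, SE 0.0699, adjusted p = 9e-10), and ICAM1, an adhesion molecule, had 1.27, 1.396 and 1.41 FPKM with olaparib and 5.64, 5.98 and 5.88 FPKM with siPARP1. Both were highest under siPARP1. Of 23 immediate early genes 9 rose and 6 fell (median -0.0038). FOS, a subunit of AP-1, had 57.2, 57.2 and 57.8 FPKM with olaparib, 9.65, 8.69 and 9.095 FPKM with siPARP1 and 1.36, 1.08 and 1.55 FPKM untreated (log2 difference 2.53, SE 0.084, adjusted p = 6.61e-12), and EGR1, a zinc-finger factor, had 34.01, 34.2 and 36.5 FPKM with olaparib and 9.498, 10.1 and 9.44 FPKM with siPARP1. Both were above untreated cells in each arm and highest with olaparib. JUND, another AP-1 subunit, was the reverse, with 7.99, 7.51 and 8.28 FPKM under olaparib and 19.99, 21.5 and 20.5 FPKM under siPARP1. CD274, the immune checkpoint ligand PD-L1, fell by 1.29 on the log2 scale, within a list of 18 NKG2D ligands and antigen presentation genes of which 3 rose and 6 fell.

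YAP and TEAD targets were mostly higher with olaparib, with a large exception. YAP is a cofactor that, with TEAD factors, reads cell density and tension; 17 of 26 targets rose and 4 fell (median log2 0.41). F3, tissue factor, had 414, 405 and 408 FPKM with olaparib and 120.4, 119 and 116 FPKM with siPARP1 (log2 difference 1.78, SE 0.033, adjusted p = 5.49e-14), with untreated cells at 114, 116 and 115 FPKM, and AJUBA, a LIM protein of the Hippo pathway, had 106, 104 and 91.5 FPKM with olaparib and 24.1, 28.6 and 31.4 FPKM with siPARP1. ANKRD1, an ankyrin repeat cofactor, went the other way, with 182, 182 and 187 FPKM under olaparib, 623, 608 and 609 FPKM under siPARP1 and 61.9, 62 and 62.8 FPKM untreated (log2 difference -1.73, SE 0.034, adjusted p = 5.49e-14). It was above untreated cells in both arms. The canonical targets CCN1 and CCN2 differed little between the arms, by -0.088 and -0.18, and the CCN1 difference turned to 0.04 (adjusted p = 0.725) with transcript sums. Against untreated cells 10 targets were higher and 5 lower under olaparib, and 5 higher and 15 lower under siPARP1.

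Genes of TGF-beta signalling and the cytoskeleton were uneven. Of 24 TGF-beta, BMP and ID genes 12 rose and 6 fell (median log2 0.29), with SMAD3, the TGF-beta signal carrier, at 27.4, 30.6 and 29.4 FPKM under olaparib and 14.7, 14.5 and 13.7 FPKM under siPARP1, and ID3, a BMP-induced inhibitor of bHLH factors, at 1.64, 2.302 and 1.98 FPKM under olaparib and 7.86, 8.43 and 9.104 FPKM under siPARP1. ID3 was high in the siPARP1 arm, and untreated cells had 1.54, 1.87 and 0.97 FPKM. Of 31 contractile and actin-binding genes 13 rose and 8 fell (median 0.17). ACTA2, smooth muscle actin, had 104, 108 and 101 FPKM with olaparib, 20.2, 19.2 and 20.1 FPKM with siPARP1 and 19.8, 21.1 and 18.2 FPKM untreated (log2 difference 2.34, SE 0.061, adjusted p = 7.03e-13), the opposite order to TAGLN, with which it is often used as a marker. TPM1, tropomyosin, had 624, 612 and 632 FPKM with olaparib and 232, 252 and 231 FPKM with siPARP1, MYL12B, a myosin light chain, rose by 1.29, and PDLIM7, an actin-linked scaffold, fell by 1.34.

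Matrix, adhesion and keratin genes included large changes of both signs. Of 30 collagen, laminin and integrin chains 14 rose and 10 fell (median log2 0.06). ITGB4, the hemidesmosome integrin, had 29.4, 24.1 and 25.6 FPKM with olaparib and 5.19, 5.56 and 4.53 FPKM with siPARP1 (log2 difference 2.17, SE 0.096, adjusted p = 1.59e-10), and COL6A3, a collagen VI chain, had 7.21, 6.29 and 5.7 FPKM with olaparib and 29.2, 31.01 and 23.7 FPKM with siPARP1 (log2 difference -1.97, SE 0.14, adjusted p = 2.07e-08). ITGB4 was low in the siPARP1 arm and COL6A3 high in it, against 27.6, 28.3 and 23.97 FPKM and 4.06, 3.62 and 3.93 FPKM untreated. Of 22 metalloproteinase and plasminogen genes 6 rose and 11 fell (median -0.26), and ADAM19, a membrane protease, had 26.5, 26.6 and 25.6 FPKM with olaparib and 107, 109 and 107 FPKM with siPARP1. KRT8, a simple-epithelium keratin, had 970.2, 1416 and 1103 FPKM with olaparib, 284, 303 and 292 FPKM with siPARP1 and 1015, 1232 and 1197 FPKM untreated (log2 difference 1.97, SE 0.18, adjusted p = 5.21e-07), within a list of 16 epithelial genes of which 6 rose and 5 fell. Of 18 mesenchymal genes 10 rose and 4 fell (median 0.27), with SNAI2, the repressor Slug, at 32.1, 28.5 and 30.8 FPKM under olaparib and 18.8, 17.3 and 19.5 FPKM under siPARP1, while FN1, fibronectin, fell by 0.68 on the log2 scale.

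The remaining lists were mixed. Of 28 apoptosis regulators 8 rose and 7 fell, of 16 ERK feedback genes 6 rose and 7 fell, and of 15 lamins and senescence-linked genes 3 rose and 5 fell. Of 16 genes of the WASH complex, retromer and USP7, which TRIM27 is known to work with, 5 rose and 4 fell; WASHC2A and WASHC2C, near-identical copies of the WASH subunit FAM21, fell by 1.03 and 1.07 on the log2 scale. Of 15 luminal markers 7 were in the comparison, and 5 rose and 2 fell. Of 10 leukocyte markers 1 was in the comparison, CD68, a lysosomal membrane protein also made outside leukocytes, with 4.75, 4.22 and 4.03 FPKM under olaparib and 9.55, 10.3 and 9.63 FPKM under siPARP1. Of 8 fibroblast and endothelial markers 1 was in the comparison, and it did not pass.

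**Figure D4:**
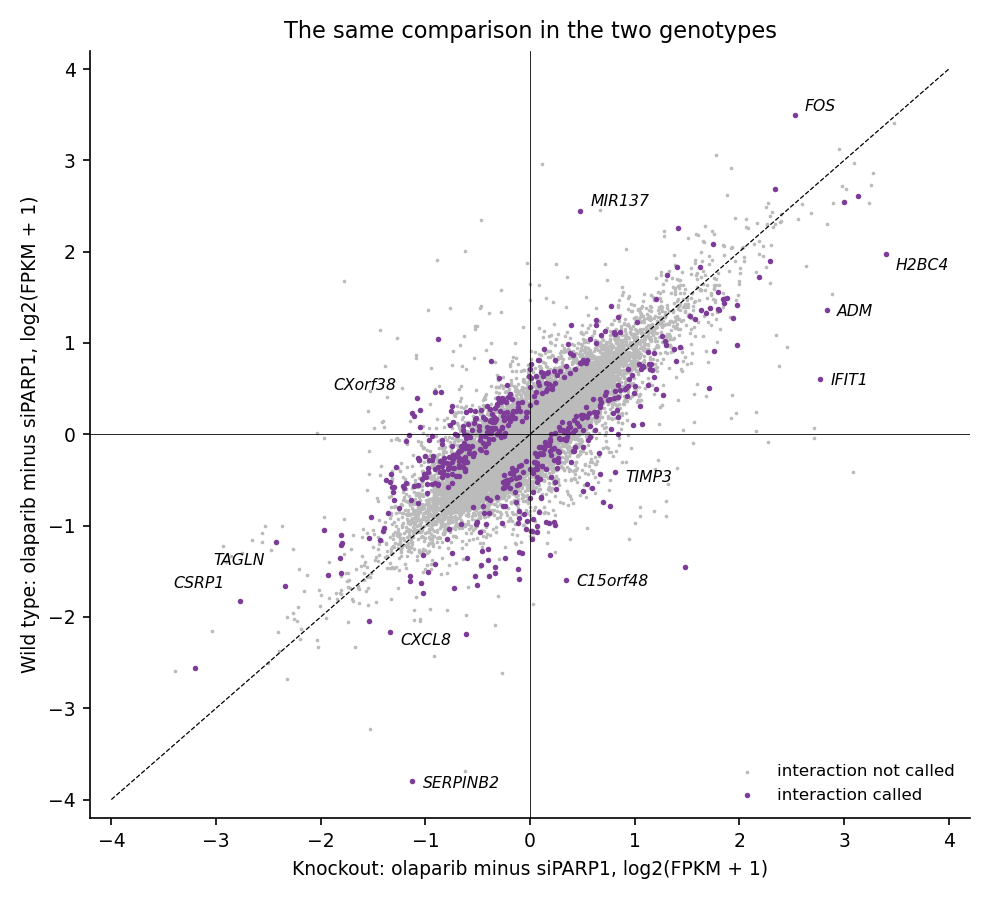
Log2 difference between olaparib and siPARP1 in knockout cells (x axis) and in wild-type cells (y axis) for every gene tested; purple points passed the test of the difference between genotypes, gray points did not, and the dashed line marks equal values. Most genes lie along the line; FOS and MIR137 lie above it, and IFIT1, ADM, H2BC4 and C15orf48 below it.

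The same contrast was read in TRIM27 wild-type cells, from libraries that do not enter the knockout difference. Both tests took each gene's spread from a joint fit of the 18 libraries, so calls in the genotypes are not independent. In wild-type cells 51.7% of all genes tested differed between olaparib and siPARP1. Of the 8221 genes called in knockout and 8146 in wild-type cells, 6374 were called in both, 77.5% of the knockout calls and 78.2% of the wild-type calls, and 6320 of those had the same direction. Across the 15764 genes, the 2 differences had a Pearson's r of 0.82, given as a description over genes of libraries made in 1 series. The histone median was 1.88 in knockout and 1.92 in wild-type cells and the p53 target median 0.66 in knockout and 0.72 in wild-type cells. The integrated stress response median was -0.66 in knockout and -0.65 in wild-type cells, and the ER stress median -0.53 in knockout and -0.52 in wild-type cells. Other lists lay further apart. Of 31 proteasome subunits, 9 were higher and 5 lower with olaparib in knockout cells, against 4 higher and 12 lower in wild-type cells. The NF-kB target median was -0.09 in knockout and -0.42 in wild-type cells, and the immediate early gene median -0.004 in knockout and 0.33 in wild-type cells. Mitochondrial transcripts that were lower numbered 10 of 13 in knockout and 4 of 13 in wild-type cells. Counts of calls within each genotype do not test a difference between genotypes. The direct test of that difference, described next, called 0 of the 13 mitochondrial transcripts. It called 2 of the 31 proteasome subunits with a higher contrast in the knockout and 0 with a lower one. Among all 15764 genes tested, 3690 were higher and 4456 lower with olaparib in wild-type cells.

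A direct test of the difference between genotypes called 3.55% of genes, 1.68% with a higher and 1.87% with a lower olaparib-minus-siPARP1 value in the knockout. The call count was uneven across libraries: the 294 lower calls became 161 without knockout olaparib library 3 or without wild-type olaparib library 2, 171 without knockout siPARP1 library 1, 181 without knockout olaparib library 2, and 179 without wild-type olaparib library 1 or 3. IFIT1 had the smallest adjusted p among the named genes, with a difference between genotypes of 2.17 (SE 0.072, adjusted p = 5.89e-10). In knockout cells it had 22.2, 21.8 and 21.8 FPKM under olaparib and 2.29, 2.21 and 2.59 FPKM under siPARP1, and in wild-type cells 10.2, 11.01 and 10.6 FPKM under olaparib and 6.81, 6.59 and 6.505 FPKM under siPARP1. Untreated cells had 10.4, 10.3 and 9.75 FPKM of IFIT1 in the knockout and 5.79, 6.39 and 6.02 FPKM in wild type. The knockout was thus higher than wild type with olaparib, as it was untreated, and lower with siPARP1. IFIT3 had a difference between genotypes of 1.201 (adjusted p = 4.32e-07), with wild-type cells at 14.7, 15.5 and 14.8 FPKM under olaparib and 9.96, 10.4 and 10.4 FPKM under siPARP1, so that mainly the siPARP1 value differed.

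**Figure D5:**
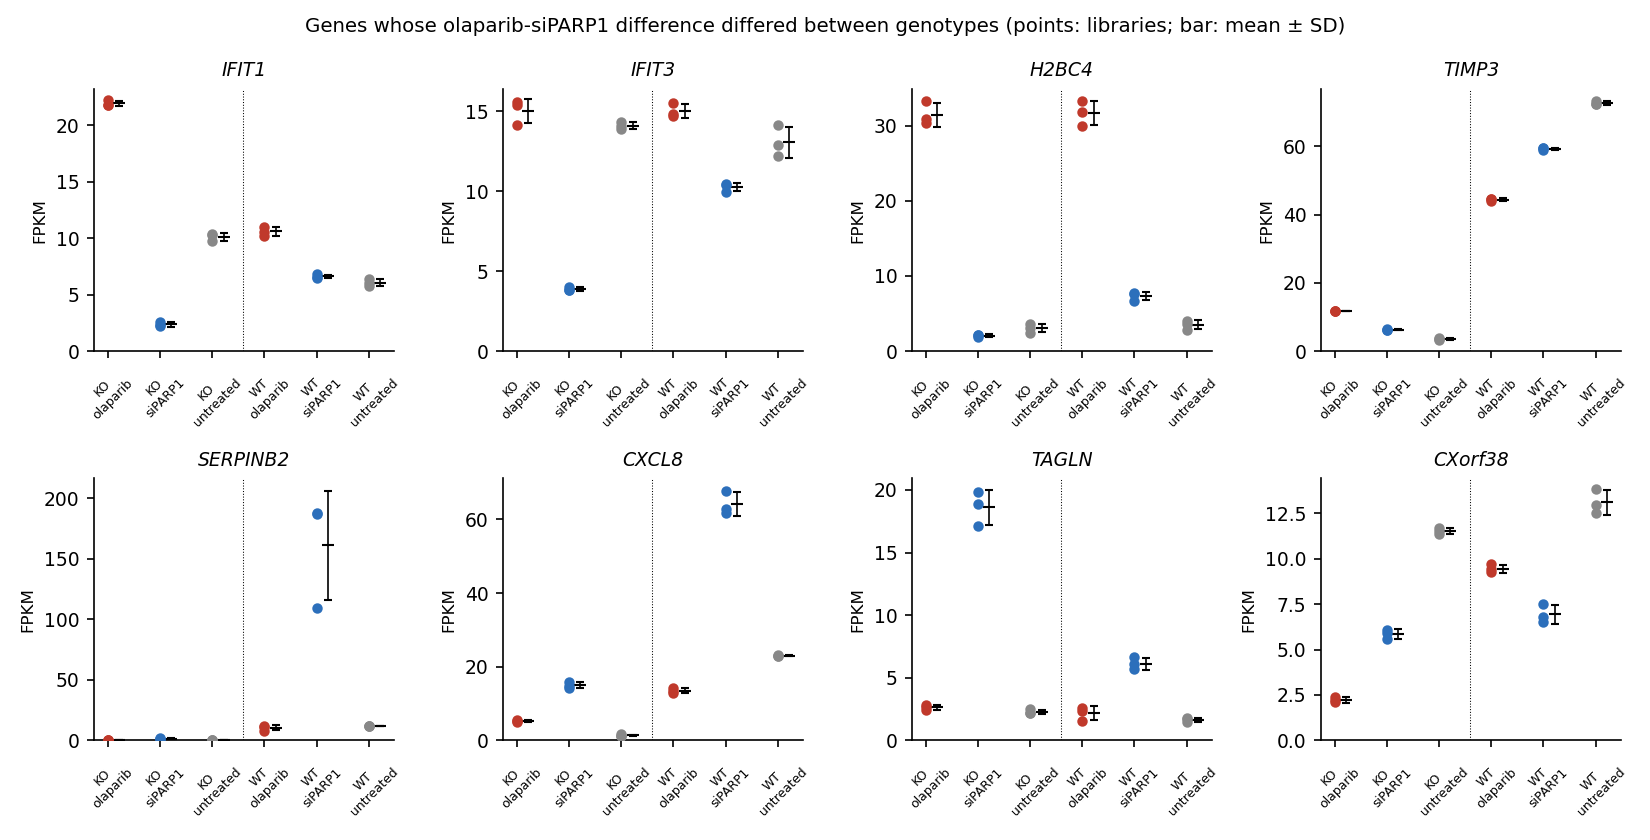
FPKM of 8 genes whose olaparib-siPARP1 difference differed between genotypes, with olaparib (red), siPARP1 (blue) and untreated (gray) libraries in knockout cells left of the dotted line and wild-type cells right of it; points are libraries and bars are mean ± SD of 3. CXorf38 is lower with olaparib than with siPARP1 in knockout cells and higher in wild-type cells, and TIMP3 is the reverse.

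Other genes differed between genotypes in level as well as in contrast. The genotypes overlapped for H2BC4 under olaparib, at 30.8, 33.3 and 30.3 FPKM in knockout and 33.2, 29.99 and 31.8 FPKM in wild-type cells, but not under siPARP1, at 1.88, 2.17 and 2.199 FPKM in knockout and 7.58, 6.67 and 7.67 FPKM in wild-type cells (difference between genotypes 1.42, adjusted p = 0.000118). TIMP3, an inhibitor of metalloproteinases, had 11.9, 11.8 and 11.7 FPKM with olaparib and 6.39, 6.33 and 6.17 FPKM with siPARP1 in knockout cells, and 44.6, 44.6 and 44.02 FPKM with olaparib and 59.4, 58.9 and 59.4 FPKM with siPARP1 in wild-type cells (difference 1.22, adjusted p = 3.3e-08). CXorf38 had 2.09, 2.41 and 2.21 FPKM with olaparib and 6.099, 5.91 and 5.56 FPKM with siPARP1 in knockout cells, and 9.69, 9.25 and 9.41 FPKM with olaparib and 7.52, 6.54 and 6.76 FPKM with siPARP1 in wild-type cells (difference -1.48, adjusted p = 1.25e-07). TIMP3 and CXorf38 thus changed the sign of the contrast, in opposite senses.

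TAGLN had 2.35, 2.62 and 1.58 FPKM under olaparib and 6.11, 6.62 and 5.67 FPKM under siPARP1 in wild-type cells, a smaller gap than in the knockout (difference between genotypes -1.25, adjusted p = 0.000322). C15orf48, a mitochondrial protein of inflamed cells, had 2.85, 2.41 and 2.92 FPKM with olaparib and 1.84, 2.01 and 1.92 FPKM with siPARP1 in knockout cells, against 4.69, 4.497 and 4.11 FPKM with olaparib and 15.9, 14.9 and 15.4 FPKM with siPARP1 in wild-type cells. The high value was that of wild-type cells under siPARP1, as it was for SERPINB2, the plasminogen activator inhibitor PAI-2, with 0.182, 0.181 and 0.038 FPKM under olaparib and 1.14, 1.85 and 1.48 FPKM under siPARP1 in the knockout and 7.96, 11.3 and 12.1 FPKM under olaparib and 188, 109 and 187 FPKM under siPARP1 in wild type. The SERPINB2 difference of 2.67 was 1.10 with an adjusted p of 0.207 when the pseudocount was 0.1. Among the lists, 11 of 50 mitotic genes had a higher contrast in the knockout and 0 a lower one, and 5 of 21 NRF2 targets had a higher and 0 a lower one. Interferon-stimulated genes had 5 of 24 higher and 1 lower, NF-kB targets 4 of 21 higher and 1 lower, and histones 3 of 24 higher and 1 lower. Of 23 immediate early genes 6 had a lower contrast and 0 a higher one, and of 31 contractile genes 6 had a lower and 1 a higher one.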

How the data were processed

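RNA was isolated with TRIzol and enriched on oligo(dT) beads, per the labels' protocols. The authors deposited FPKM per gene and per transcript for the 18 libraries; the submitters' processing notes name the build GRCh38 and, among tools, StringTie 2.2.1, featureCounts 2.0.3, HISAT2 2.2.1, DESeq2 1.38.3 and fastp 0.23.2. The tool that made the FPKM values and the use of strand were not given in the sources used here. From the gene table, log2(FPKM + 1) was fitted with limma 3.58.1 in R 4.3.3 (6 groups, 12 residual degrees of freedom, prior variance following the mean). Benjamini-Hochberg adjustment ran over the 15764 genes that reached 1 FPKM in 3 or more of 18 libraries, and an adjusted p under 0.05 was called. Fold changes on this scale understate the change of low genes. FPKM values were not taken as counts. Gene lists were compared by counts and medians without a list test. The members and lists were chosen with earlier results of these data known. Named genes were PARP1, PARP2, TRIM27, PAX6, the 12 largest differences of each sign with no overlap and a higher-arm mean of 5 FPKM or more, up to 6 of the largest called per list, and the 6 largest genotype differences of each sign. ATF4, CCN1, CCN2, CCNA2, CCNB1, CDKN1A, H1-2, STAT2 and TIGAR were named after their values were seen. Replicate numbers did not pair the libraries (residual correlations of 0.016, -0.005 and -0.046 for the same number). The fit was tested on simulated data, where it called 55% of log2 changes of 0.5, 86% of changes of 1 and 5 unchanged genes. Few genes were changed in those data, so these shares need not hold here. Alternatives were another pseudocount, filters, scalings, transcript sums, the 6 libraries alone, a replicate block and each library left out.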

Additional observations from a re-analysis of the deposited data

Results flagged for a closer look

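The following values are differences between the genotypes in the olaparib-minus-siPARP1 contrast, knockout minus wild type, on the log2(FPKM + 1) scale; each passed limma's test of that difference itself, over all genes tested. They came to 44 named genes, 24 with a positive and 20 with a negative value, and 7 had opposite signs in the genotypes.

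Of 24 histone genes 3 had a called positive and 1 a called negative value, and of 24 interferon-stimulated genes 5 a positive and 1 a negative one. Those picked by the naming rule were positive, with IFIT1 at 2.17, IFI44 at 1.58, H2BC4 at 1.42, IFIT3 at 1.2, ISG15 at 0.58 and H2BC5 at 0.52. Among secreted, matrix and inflammatory genes the positive values were SERPINB2 at 2.67, C15orf48 at 1.94, APOE at 1.52, ADM at 1.47, TIMP3 at 1.22, CXCL8 at 0.83, CD68 at 0.72, BIRC3 at 0.53 and ICAM1 at 0.51. IFI44 and APOE did not reach 1 FPKM in 3 of the 6 knockout libraries compared. Metabolic, mitotic and structural genes had smaller positive values: KIF20A 0.57, TYMS 0.54, MGARP 0.46, HMOX1 0.4, LDHA 0.32, CLDN1 0.31, DLGAP5 0.29, KRT18 0.29 and MYL12B 0.27.

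Negative values were those of immediate early genes, FOS at -0.97, JUND at -0.92, FOSB at -0.85 and EGR1 at -0.33, and of actin and matrix genes, TAGLN at -1.25, CSRP1 at -0.95, COL6A3 at -0.92, PDLIM7 at -0.81, TGFBI at -0.77 and ACTA2 at -0.35. The others were MIR137 at -1.97, LASP1 at -1.93, CXorf38 at -1.48, NEIL1 at -1.37, LOXL1-AS1 at -1.32, CLCN7 at -0.74, PDE7B-AS1 at -0.64, CCND2 at -0.62, HSPA1A at -0.32 and HMGA2 at -0.22. The call was lost in 17 of 20 alternatives for JUND, 14 for LASP1, 13 each for MIR137, PDE7B-AS1 and ACTA2, 11 for BIRC3 and 10 each for LDHA and CLCN7. It was also lost in 9 for TGFBI, 8 each for ADM, HSPA1A and HMGA2, and 5 for FOSB. For MGARP it was lost in 7, and the sign turned in 1 more. Without wild-type olaparib library 3 the ADM value was 1.06. Of genes named outside the rule, STAT2 at -0.53 was negative and CCNB1 at 0.44 and CCNA2 at 0.25 positive, each past the same test, though CCNA2 lost the call in 11 and STAT2 in 9 of the 20 alternatives.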

How the results depend on the processing

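Of the 8221 genes called between olaparib and siPARP1, 102 of the 7724 that transcript sums covered had the other sign there, 4 of them called, and 0 turned under the other alternatives. Of the 559 called differences between genotypes, 8 of 540 turned with transcript sums and 1 with a pseudocount of 0.1, 0 of them called. Among named genes, CCN1 turned to 0.039 with transcript sums, and the genotype difference of MGARP to -0.098 with the pseudocount of 0.1. Genes higher with olaparib numbered 3235 to 3317 with a library left out, 4158 without a filter and 3035 from transcript sums, against 3534; genes lower numbered 4236 to 4447 with a library left out and 5037 without a filter, against 4687. Of the calls, 43% were higher, 47.2% after rescaling to TPM, 49.7% with median-of-ratios scaling and 44.1% with equal nuclear sums. The replicate block gave 3533 higher and 4670 lower; the replicate numbers were not found to pair the libraries. For the difference between genotypes the block gave 244 higher and 253 lower, against 265 and 294. With a library left out the higher calls were 185 to 234 and the lower calls 161 to 225; scaling gave 199 to 320 higher and 199 to 388 lower. Of the named genes' values under the alternatives, 3981 stayed on the same side of the threshold and 81 lost the call; for the 47 named genes with a called difference between genotypes, 766 kept it and 173 lost it; the causes were not tested. Of the 47, 25 kept the call under all 20 alternatives and 9 lost it in 10 or more. Over 16 settings, called histones that were higher numbered 19 to 23, p53 targets 28 to 31, integrated stress response genes that were lower 23 to 25 and ER stress genes 13 to 19. Other lists moved more: homologous recombination genes that were lower numbered 10 to 20 (18 in the report), respiratory chain genes 9 to 16 (15), apoptosis regulators that were higher 3 to 8 (8), proteasome subunits 5 to 12 (9) and cholesterol genes 3 to 6 (6); 17 of the 82 counts of list members moved by more than 1.5 times. Absolute depth is unknown, so no count interval could be given. The groups of 3 libraries limit precision to a median SE of 0.106 in log2.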
